A study of Mus musculus with 6 samples.

Results

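The genes described here are 10 members of the Nodal and bone morphogenetic protein (BMP) pathways: Nodal, Tdgf1, Lefty1, Lefty2, Gdf3 and Smad7 on the Nodal side, and Bmp4, Id1, Id2 and Id3 on the BMP side. They were chosen by name, with earlier results of these data known. They had 10 of the 17110 rows in the authors' deposited table of differential expression. Of these, 9 carried the listed name, and Tdgf1 was found by its Ensembl gene ID, ENSMUSG00000032494, under its other name, Cripto. The samples were mouse embryonic stem cells of the line TG2A with the genotype MERVL::Fluorescent protein, grown in serum with leukemia inhibitory factor and separated by flow cytometry. One group was DsRed2+ (3 samples) and the other DsRed2- (3 samples), so both carried the reporter and both came from the same culture conditions. MERVL is an endogenous retrovirus active in the early embryo, and a reporter under its control marks two-cell-like cells in stem cell culture. Per the labels, replicates were collected on different dates.

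Each gene is represented by 1 log2 fold change with its standard error (SE) and 1 mean normalized count over all libraries. Values for single samples are not used here, because the 6 columns of counts carry names that match no sample label. Neither the groups compared nor the numerator of the ratio is named in the authors' deposited table. The comparison was taken to be between the DsRed2+ and DsRed2- groups, which are the only ones in the labels. "Positive" and "negative" below are therefore signs as deposited, and no statement is made on which sorted group was higher. In bulk RNA, fewer cells of a type and less RNA per cell cannot be told apart.

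Nodal is a secreted ligand of the TGF-beta family. It signals through activin receptors and the co-receptor encoded by Tdgf1 to the transcription factors Smad2 and Smad3, and it induces its own feedback antagonists, the Lefty proteins. BMP ligands signal through other type I receptors to Smad1 and Smad5, which induce the Id genes. Id proteins are helix-loop-helix factors without a DNA-binding region, and they hold E proteins away from DNA. In mouse embryonic stem cells grown with serum and leukemia inhibitory factor, BMP signalling to Id genes is known to hold back neural differentiation, and Nodal signalling is active in the culture through ligand made by the cells.

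Of the 10 genes, 6 passed an adjusted p-value of 0.05 in the authors' deposited table, 4 of them negative (Lefty1, Smad7, Id2 and Id3) and 2 positive (Bmp4 and Gdf3). The background in that table was 30.5% of all genes past this threshold, 14.6% positive and 15.9% negative. The median log2 fold change was -0.64 over the 10 genes and 0.0097 over all genes. With the authors' own call, which also asks for an absolute log2 fold change over 0.5, 4 members were down and 1 (Bmp4) was up, beside 12.1% and 9.4% of all genes and 21.5% in either direction. The negative members included feedback inhibitors and Id genes, whereas the Nodal ligand and its co-receptor lay close to 0.

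**Figure D1:**
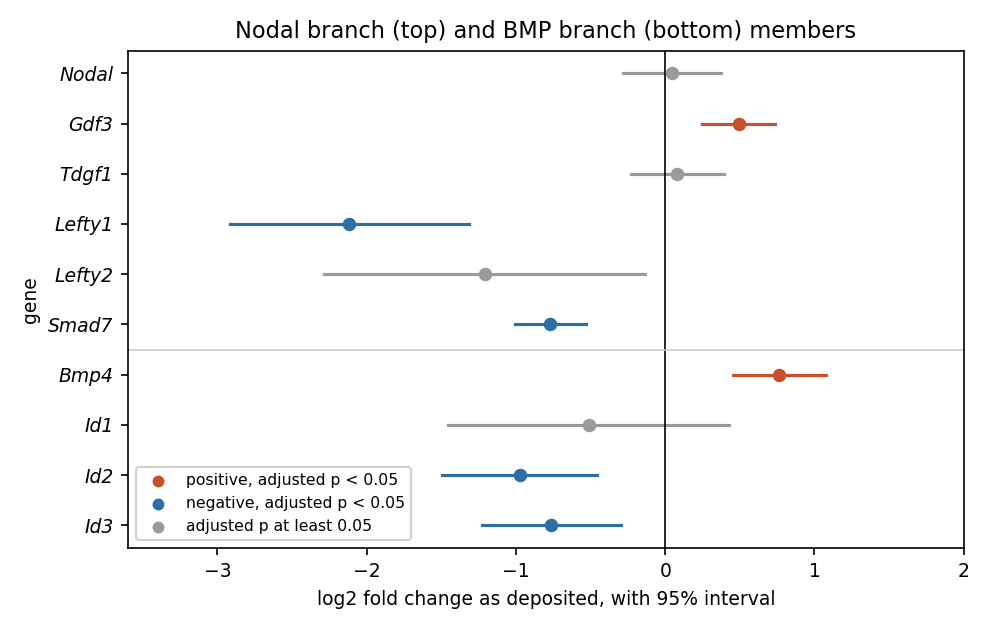
Log2 fold changes as deposited (x axis, log2 scale) for the 10 genes (y axis), Nodal branch above the grey line and BMP branch below it; points are fold changes, bars 95% intervals from the standard error, and colour gives sign and call. Lefty1 lies farthest from 0 at -2.12, and the intervals of Nodal, Tdgf1 and Id1 include 0.

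Among the members that encode Nodal-side ligands or the co-receptor, only Gdf3 passed the test. Nodal (ENSMUSG00000037171) had a mean normalized count of 1406 and in the authors' deposited table a log2 fold change of 0.047 ± 0.17 (SE), with a 95% interval from -0.28 to 0.37 (adjusted p-value 0.873). Tdgf1, the membrane-anchored co-receptor that Nodal needs, had a mean count of 12888 and in the authors' deposited table a log2 fold change of 0.081 ± 0.16, with an interval from -0.23 to 0.39 (adjusted p-value 0.758). The higher of these upper bounds, that of Tdgf1, corresponds to a ratio of 1.31-fold. The sign of both is not settled, since centring on ribosomal protein genes turned them to -0.046 and -0.012. Gdf3 (ENSMUSG00000030117), a Nodal-related ligand that also uses the co-receptor, had a mean count of 2696 and stood at 0.49 ± 0.13 in the authors' deposited table, a 1.41-fold ratio with an interval from 1.19 to 1.67 (adjusted p-value 0.000541). It was just under the authors' limit of 0.5 and so carried no call of theirs.

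Tdgf1 has a near copy in the table, the processed pseudogene Tdgf1-ps1 (ENSMUSG00000095834), which was looked up after the values of Tdgf1 were seen. In GENCODE M21, 506 of 513 aligned bases (98.6%) of the Tdgf1 coding sequence and the pseudogene were identical, and 67.9% of the 31-base windows of the coding sequence occurred in the pseudogene, but only 5 of 367 windows of 150 bases (1.4%) did. The first 150 coding bases, the length of 1 read, are shown to let the 2 differing bases (capitals) be seen:
Tdgf1: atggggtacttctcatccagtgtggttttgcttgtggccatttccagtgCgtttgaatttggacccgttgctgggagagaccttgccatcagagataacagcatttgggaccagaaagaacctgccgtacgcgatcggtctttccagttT
Tdgf1-ps1: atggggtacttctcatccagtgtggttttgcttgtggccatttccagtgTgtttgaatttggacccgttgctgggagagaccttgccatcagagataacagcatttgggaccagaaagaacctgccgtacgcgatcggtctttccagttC
The pseudogene was listed with a mean normalized count of 924.4 and in the authors' deposited table a log2 fold change of 0.069 ± 0.22, at an adjusted p-value of 0.856. How the reads were divided between Tdgf1 and Tdgf1-ps1 is uncertain in the stretches they share, and both fold changes stood within 1 SE of 0.

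The extracellular antagonists Lefty1 and Lefty2 bind Nodal and its co-receptor and block signalling. Lefty1 (ENSMUSG00000038793) had a mean normalized count of 2621 and in the authors' deposited table a log2 fold change of -2.12 ± 0.41, with an interval from -2.91 to -1.32 (adjusted p-value 2.38e-06). This is a 4.33-fold ratio between the groups, with an interval from 2.49 to 7.54, and only 3.13% of all genes had a fold change as low or lower. Lefty2 (ENSMUSG00000066652) had a mean count of 1223 and stood at -1.21 ± 0.55 in the authors' deposited table, with an interval from -2.29 to -0.13. It did not pass over all genes (adjusted p-value 0.081), and its interval also holds values beyond the estimate for Lefty1. The difference between Lefty1 and Lefty2 was not tested, because the table holds no values per sample.

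Lefty1 and Lefty2 lie close together on chromosome 1. Their coding sequences in GENCODE M21 have the same length, 1107 bases, and were identical at 1017 of them (91.9%). No window of 150 bases was shared, but 37.0% of the 31-base windows of Lefty1 were found in Lefty2. The submitters' processing notes name RSEM, a program that divides ambiguous reads by estimation, but its settings are not given in the sources used here. The split of reads between Lefty1 and Lefty2 in shared stretches is uncertain.

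Smad7, the intracellular inhibitor that blocks receptors of both branches and is induced by them, had the smallest standard error of the 10 genes. Smad7 (ENSMUSG00000025880) had a mean normalized count of 889.7 and in the authors' deposited table a log2 fold change of -0.77 ± 0.12, with an interval from -1.01 to -0.53 (adjusted p-value 5.2e-09). The ratio between the groups was 1.70-fold, with an interval from 1.44 to 2.01. Smad7 and Lefty1, both feedback inhibitors, thus had the same sign, opposite to that of Gdf3.

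On the BMP side, the ligand gene Bmp4 and the target genes Id2 and Id3 had opposite signs, while the sign of Id1 is not settled. Bmp4 (ENSMUSG00000021835), the main BMP ligand of the early embryo, had a mean normalized count of 615.2 and in the authors' deposited table a log2 fold change of 0.76 ± 0.16, a 1.70-fold ratio with an interval from 1.37 to 2.11 (adjusted p-value 1.43e-05). Id2 (ENSMUSG00000020644) had a mean count of 786 and stood at -0.98 ± 0.27 in the authors' deposited table, a 1.97-fold ratio in the negative direction with an interval from 1.37 to 2.82 (adjusted p-value 0.0014). Id3 (ENSMUSG00000007872), with a mean count of 608, had -0.76 ± 0.24 and a 1.70-fold ratio with an interval from 1.23 to 2.34 in the authors' deposited table, at an adjusted p-value of 0.00615. Id1 (ENSMUSG00000042745) had a mean count of 823.2 and -0.51 ± 0.48 in the authors' deposited table, and its interval, from -1.45 to 0.43, includes 0 as well as the estimates for Id2 and Id3 (adjusted p-value 0.465). The 3 Id coding sequences share no 31-base window in any pairing, so no exact match of that length links them. Pairwise identity over aligned coding bases was 71.6% for Id1 and Id2, 67.1% for Id1 and Id3 and 69.2% for Id2 and Id3.

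The promoters of the BMP-side genes that passed the test, Bmp4, Id2 and Id3, are shown because their fold changes point in opposite directions. RefSeq promoter windows (GRCm38.p6) run from 250 bases before to 50 bases after the start. They were matched by symbol and analysed for 5 members (Nodal, Tdgf1, Bmp4, Id2 and Id3). Lefty1, Lefty2, Gdf3 and Id1 had no entry in the promoter set used. Smad7 was left out of the search, so the counts below say nothing about its promoter. Both strands were searched for GTCT, the core that Smad3 and Smad4 bind, for its palindrome GTCTAGAC, for GGCGCC, a GC-rich element bound by BMP-responsive Smad proteins, and for AATNNACA, the consensus of the Nodal-pathway factor Foxh1. Matches to GTCT or GGCGCC are in capitals, with AGAC the reverse complement of GTCT. GTCTAGAC contains GTCT, so a match to the palindrome is also a match to the core. The windows are chr14:46390620-46390919 on the minus strand for Bmp4, chr12:25096043-25096342 on the minus strand for Id2, and chr4:136143572-136143871 on the plus strand for Id3:
Bmp4: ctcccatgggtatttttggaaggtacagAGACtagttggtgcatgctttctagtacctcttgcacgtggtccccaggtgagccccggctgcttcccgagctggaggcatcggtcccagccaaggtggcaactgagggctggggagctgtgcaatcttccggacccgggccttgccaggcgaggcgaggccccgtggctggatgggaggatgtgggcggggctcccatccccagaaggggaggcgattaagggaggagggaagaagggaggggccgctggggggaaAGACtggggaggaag
Id2: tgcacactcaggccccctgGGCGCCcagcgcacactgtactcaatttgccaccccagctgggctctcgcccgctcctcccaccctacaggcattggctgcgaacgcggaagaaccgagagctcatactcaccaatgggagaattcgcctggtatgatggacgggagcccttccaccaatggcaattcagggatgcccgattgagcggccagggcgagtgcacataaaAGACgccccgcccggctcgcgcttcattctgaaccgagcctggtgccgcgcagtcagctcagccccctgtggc
Id3: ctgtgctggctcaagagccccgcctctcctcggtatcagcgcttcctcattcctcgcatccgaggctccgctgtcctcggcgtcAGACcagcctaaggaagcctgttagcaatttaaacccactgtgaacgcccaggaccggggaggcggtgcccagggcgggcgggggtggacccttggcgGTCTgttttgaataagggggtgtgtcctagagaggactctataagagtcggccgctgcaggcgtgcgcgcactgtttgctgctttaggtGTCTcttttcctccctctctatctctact
GGCGCC had 1 match in the Id2 window, beginning 231 bases before the start, and 0 in the windows of Bmp4, Id3, Nodal and Tdgf1. It occurs in 11.87% of 32851 mouse promoter windows of the same length. GTCT had 1 match in Id2, 2 in Bmp4, 3 in Id3, 2 in Nodal and 3 in Tdgf1, but 87.98% of all windows hold it. AATNNACA had 2 matches in Tdgf1 and 0 in the other 4 windows, against 12.21% of all windows, and GTCTAGAC had 0 in all 5, against 0.21%. GC content was 64.0% for Bmp4, 63.3% for Id2, 60.0% for Id3, 54.0% for Nodal and 41.7% for Tdgf1, where the median promoter has 52.7%. These matches describe letters in the windows and nothing about binding.

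The standard errors of the members were uneven. For genes with a mean count within 1.2-fold of Lefty2, the median SE in the authors' deposited table was 0.12, and that of Lefty2 was 4.62 times as large, above 99.6% of 1116 such genes. Lefty1 exceeded its median 3.80 times and lay above 99.6% of 1003 such genes, and Id1 exceeded its own 3.70 times and lay above 99.3% of 1167. Id2 was 2.02 times, Id3 1.66 times and Tdgf1 1.58 times the median of genes with like counts, and Nodal lay above 87.7% of 1136 such genes. Bmp4, Gdf3 and Smad7 were at 1.11, 1.16 and 0.96 times. Lefty1, Lefty2 and Id1 thus varied more about the fit than nearly all genes of their abundance, and which samples carry that spread was not analysed here.

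**Figure D2:**
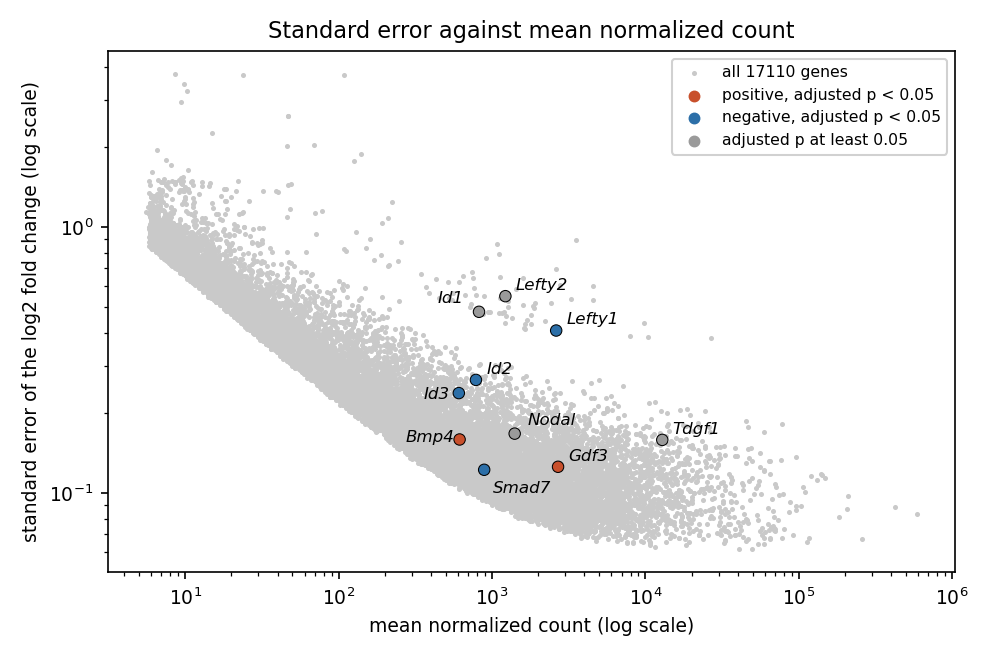
Standard error of the log2 fold change (y axis, log scale) against the mean normalized count (x axis, log scale); grey dots are all 17110 genes, large points the 10 members coloured by sign and call. Lefty1, Lefty2 and Id1 lie above the band of genes with like counts, at 0.41, 0.55 and 0.48.

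For levels between genes, mean normalized counts were divided by the length of the longest protein-coding GENCODE M21 transcript. On this scale Tdgf1 was highest at 6671 counts per kilobase, followed by Lefty1 at 1618 and Gdf3 at 1269. Id1 stood at 709.6, Nodal at 671.1, Lefty2 at 494.6 and Id3 at 475.8 counts per kilobase. Id2, Bmp4 and Smad7 were lowest, at 399.2, 298.1 and 208 counts per kilobase. The levels are pooled over both groups and have no replicate error, so neighbours in this order are not shown to differ.

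The wider pathways were taken as 80 listed genes, of which 66 had a row and 14 are not analysed here. The lists were chosen with earlier results of these data known, so their shares describe them and test nothing. Excluding the 10 members, 30 of 56 genes (53.6%) passed the adjusted p-value of 0.05 in the authors' deposited table, 26 negative and 4 positive, beside 30.5% of all genes. Their median log2 fold change was -0.45, against 0.0097 over all genes. In the Nodal, activin and TGF-beta list, members included, 17 of 35 genes were past the threshold as negative and 4 as positive. For the BMP list the counts were 14 negative and 2 positive of 32, and Smad4 belongs to both lists.

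Ligands of the Nodal and TGF-beta side were mixed. By the authors' deposited table, of 8 ligands 2 were positive and 3 negative past the threshold, beside 14.6% and 15.9% of all genes. Inhbb, which encodes the activin B subunit, stood at 1.60 ± 0.19 in the authors' deposited table, at an adjusted p-value of 3.16e-16. Tgfb2 and Tgfb1, other ligands of the family, had -4.07 ± 0.66 and -0.78 ± 0.24. The mean count of Tgfb2 was only 66.6. Of the 3 proprotein convertases that can cleave these precursors, Pcsk6 was positive at 0.77 ± 0.11 and Furin negative at -1.61 ± 0.28 in the authors' deposited table, with adjusted p-values of 5.76e-11 and 1.19e-07.

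Receptors leaned to the negative side in both branches. On the Nodal and TGF-beta side 4 of 7 were negative past the threshold and 0 positive, beside 15.9% and 14.6% of all genes. The activin type II receptor Acvr2a had -0.79 ± 0.14 in the authors' deposited table, at an adjusted p-value of 1.57e-07. The TGF-beta receptors Tgfbr2 and Tgfbr3 had -2.68 ± 0.44 and -1.72 ± 0.45, both at mean counts below 50. Among BMP receptors and co-receptors 5 of 7 were negative and 0 positive past the threshold. Bmpr2, the type II BMP receptor, stood at -0.77 ± 0.099 and the type I receptor Bmpr1a at -0.70 ± 0.099 in the authors' deposited table, with adjusted p-values of 1.58e-13 and 4.32e-11. Bmpr1b, another type I receptor, had -3.44 ± 0.54 at a mean count of 28.3.

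Of the signal transducers, 2 of 4 on the Nodal side and 3 of 4 on the BMP side passed, all negative, with Smad4 in both lists. Over all genes 15.9% passed as negative. Smad4, the partner shared by both branches, stood at -0.46 ± 0.077 in the authors' deposited table, at an adjusted p-value of 5.37e-08. On the Nodal side Smad3 had -0.83 ± 0.19 (adjusted p-value 9.21e-05), while Smad2 had 0.14 ± 0.11 and did not pass (adjusted p-value 0.371). Their partner Foxh1 had -0.38 ± 0.20 in the authors' deposited table, at an adjusted p-value of 0.154. The BMP transducers Smad1 and Smad5 had -0.46 ± 0.12 and -0.30 ± 0.091, with adjusted p-values of 0.000556 and 0.00567. Smad9, the remaining BMP transducer, had 1.53 ± 0.77 at a mean count of 8.12 and did not pass (adjusted p-value 0.126). Of the transducers that passed, Smad3 alone was beyond the authors' limit of 0.5.

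Inhibitors other than the members included Fst, the activin-binding follistatin, at -3.21 ± 0.33 in the authors' deposited table, at an adjusted p-value of 1.95e-20. The nuclear repressors Skil and Tgif1 had opposite signs, -0.37 ± 0.079 and 0.39 ± 0.10. With the members Lefty1 and Smad7 counted, 4 of 10 Nodal-side inhibitors were negative and 1 was positive past the threshold. Over all genes 15.9% were negative and 14.6% positive. Among BMP inhibitors, 1 of 7 passed, the ubiquitin ligase Smurf2 at -0.24 ± 0.081 (adjusted p-value 0.0118). That share, 14.3%, was below the 30.5% of all genes that passed in either direction. Of the 6 BMP ligands with a row 2 passed, Bmp4 and Bmp8b. Bmp8b stood at -2.01 ± 0.27 in the authors' deposited table, at an adjusted p-value of 1.59e-12. The share of these ligands that passed, 33.3%, was near that of all genes.

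Target genes of both branches were mainly negative. Of 9 Nodal targets with a row, 6 passed as negative and 0 as positive in the authors' deposited table, beside 15.9% and 14.6% of all genes. The members Nodal, Lefty1, Lefty2 and Smad7 are among the 9. Lefty1, Smad7 and Skil also stand among the negative inhibitors. The median over the 9 was -1.21 on the log2 scale. Eomes, a T-box gene of mesendoderm and trophoblast, had -2.22 ± 0.33 (adjusted p-value 3.6e-10). Of 10 BMP targets, Id1, Id2 and Id3 among them, 4 passed as negative and 1 as positive. The homeobox genes Msx1 and Msx2 stood at -4.44 ± 0.80 and -2.14 ± 0.60 in the authors' deposited table, with mean counts of 45.9 and 28.8. Dusp9, a phosphatase that restrains ERK, was the positive one at 0.27 ± 0.086 (adjusted p-value 0.00684), a call lost with centring on ribosomal protein genes (0.18, adjusted p-value 0.097). Among the E proteins that Id proteins bind, Tcf12 had -0.99 ± 0.11, Tcf4 had 0.41 ± 0.12, and Tcf3 did not pass.

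**Figure D3:**
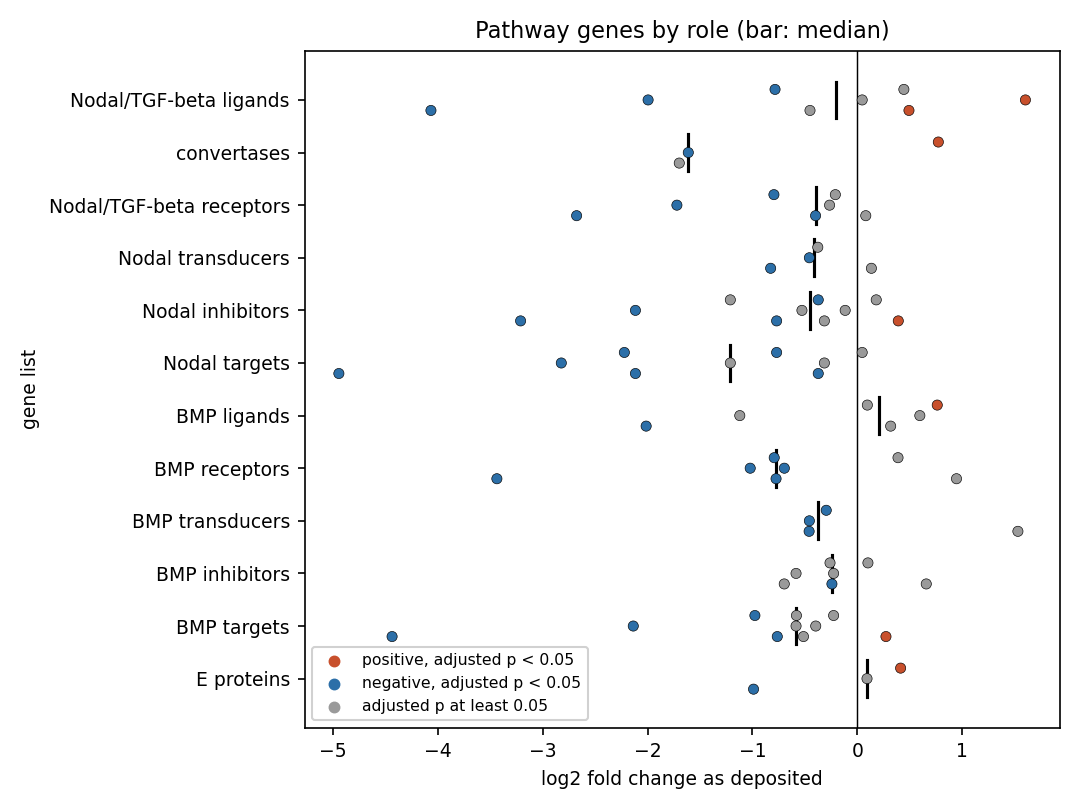
Log2 fold changes as deposited (x axis, log2 scale) of the listed pathway genes with a row, by role (y axis); each point is 1 gene, coloured by sign and call, and the black bar is the list's median. Nodal targets have a median of -1.21 and BMP receptors one of -0.77, while BMP ligands have one of 0.21; a gene in 2 lists is drawn in both.

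Markers of several differentiating cell types had the same sign as Lefty1, Smad7, Id2 and Id3, and their part in these results was not tested. By the authors' deposited table, of 7 trophectoderm markers with a row 6 were negative past the threshold, as were 4 of 5 formative epiblast, 3 of 3 mesendoderm and 5 of 6 fibroblast markers, where 15.9% of all genes were. Of 5 primitive endoderm markers 1 was negative past the threshold, a share near that of all genes. In these 5 lists 0 markers were positive past the threshold. Their summed mean counts were 4525, 17325, 1418, 2039 and 2827, pooled over both groups. In every list but trophectoderm a single gene made up most of the sum. These were Dnmt3b at 14616 (formative epiblast), T at 1106 (mesendoderm), Tagln at 1849 (fibroblast) and Sparc at 2646 (primitive endoderm). Eomes and Mixl1 stand in the mesendoderm list as well as among the Nodal targets, so these lists are not independent. Of 8 embryonic stem cell markers, 5 were positive and 0 negative past the threshold, with a median log2 fold change of 0.53 and a summed mean count of 130976. Bmp4 and Gdf3 shared the sign of that list. Of 11 two-cell-like markers, 10 had no row and are not analysed here, and the remaining one, Zfp750, had -0.29 ± 0.27 in the authors' deposited table, at an adjusted p-value of 0.479, so the reporter state itself was not checked.

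**Figure D4:**
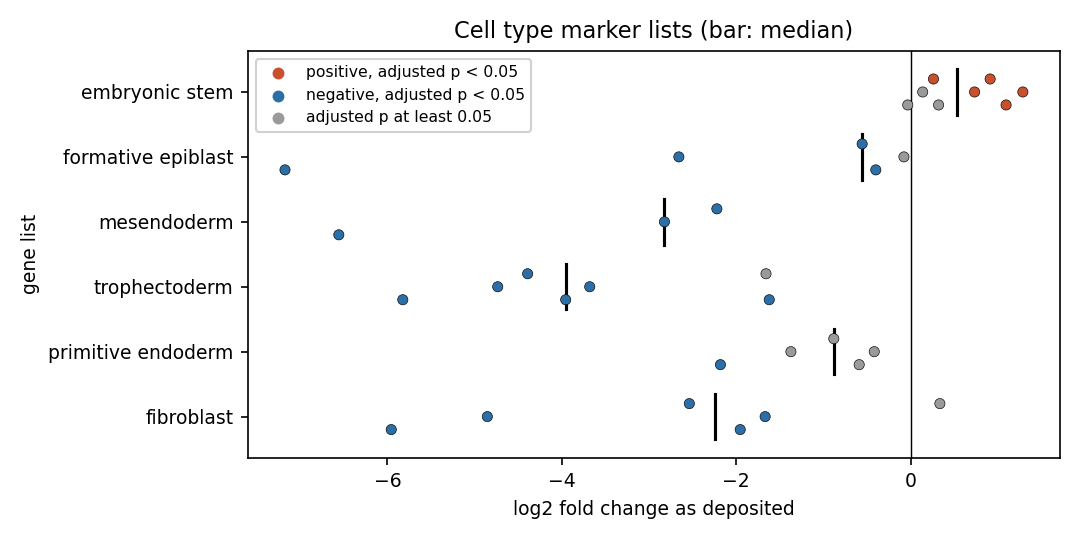
Log2 fold changes as deposited (x axis, log2 scale) of marker genes with a row for 6 cell types (y axis); each point is 1 gene, coloured by sign and call, and the black bar is the median. Embryonic stem cell markers have a median of 0.53, and the medians of the other 5 lists are negative.

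Genes next to the members on the chromosome did not share one sign. Among the 3 nearest protein-coding genes on each side in RefSeq's order, 48 distinct genes other than members had a row, of which, by the authors' deposited table, 12 passed as positive and 9 as negative, where 14.6% and 15.9% of all genes did. Beside Lefty1, Tmem63a had -1.31 ± 0.27, while Sde2 had 0.31 ± 0.14 and did not pass. Beside Gdf3, the pluripotency gene Nanog had 0.73 ± 0.15, while Dppa3 and Slc2a3 had -0.76 ± 0.19 and -0.82 ± 0.19 in the authors' deposited table. Around Id3 3 neighbours were positive and 0 negative past the threshold, opposite in sign to Id3. Smad7 (2 positive, 0 negative) and Bmp4 (0 positive, 2 negative) also had neighbours of the opposite sign. Around Id2 0 were positive and 3 negative, and around Lefty1 0 and 2, the same sign as these members. Gdf3 had 2 of each. These neighbours were named after their values were seen.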

How the data were processed

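Polyadenylated RNA of 6 samples was sequenced from both ends on the DNBSEQ platform, per the labels' protocols. The submitters' processing notes name FastQC 0.12.1, Trimmomatic 0.39, STAR 2.7.11b, RSEM 1.3.3, DESeq2 1.45.3 and the build GRCm39, without roles or order. Values come from 1 table of the authors' comparison. Per the file headers its columns are those of DESeq2: the authors' mean normalized count (a signal pooled over libraries), log2 fold change and SE on the log2 scale, a statistic (a score equal to fold change over SE within 5.77e-07), and p-values and adjusted p-values. The model formula and reference group are not given in the sources used here. The authors' calls matched an adjusted p-value under 0.05 with an absolute log2 fold change over 0.5, with 0 exceptions. The 6 value columns of a count table matched no sample label and were not used, so depth per sample is unknown; its gene IDs included all 10 members. The planned count tests were therefore not run.

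Intervals of 95% were computed as fold change ± 1.96 SE in Python 3.11.15 (scipy 1.17.1). For alternatives, fold changes were recentred, tested as Wald statistics and adjusted by Benjamini-Hochberg over all genes. The code was first checked on simulated fold changes, with noise drawn from the deposited SEs and far fewer changed genes than here. That check covers the code only, not the SEs or the centring in these data. Dates of collection are given only as different. Whether date or replicate entered the authors' model is unknown, and so is whether the p-values allow for them. Named genes were the 10 members, in each role list the up to 3 others with the smallest p-value among those past the threshold, and Smad1 to Smad5 with Foxh1; neighbours, Tdgf1-ps1, markers and genes named to explain a count were outside that rule. No gene of like pattern was named, since 1 fold change per gene is no pattern. Some items that the rule or the lists hold are not reported here. Members and lists were chosen with earlier results of these data known. Sequences are from RefSeq (GRCm38.p6) and GENCODE M21 (GRCm38), matched by symbol or gene ID, and no position was converted to the authors' build. Coding sequences were aligned globally with Biopython 1.88.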

Additional observations from a re-analysis of the deposited data

How the results depend on the processing

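Across the alternatives run, the 4 negative and 2 positive members stayed past the threshold at an adjusted p-value of 0.01, with both centrings, with a recomputed adjustment and with a minimum mean count of 50. With an absolute log2 fold change over 0.5 the positive counts dropped to 1 for the members, 2 for the Nodal and activin list and 1 for the BMP list; over 1 they were 0, 1 and 0, and the negative counts were 1, 10 and 5. Over all 17110 genes the limit of 0.5 left 1609 positive and 2067 negative, and that of 1 left 957 and 1315. These losses follow from the stricter limits. Centring on ribosomal protein genes (a shift of 0.093) left 1 positive BMP gene, raised the negative counts of the Nodal and BMP lists from 17 to 19 and from 14 to 16 (Tgfbr1 and Ski, Bmp7 and Twsg1), and turned Nodal to -0.046 and Tdgf1 to -0.012, without a call on either side; the cause was not tested. The list negatives were 14 and 10 at the limit of 0.5, and 13 and 11 with a minimum mean count of 50, where fewer genes are tested. Centring on ribosomal protein genes also moved the split over all genes from 2492 positive and 2719 negative to 1864 and 3508. Of 70 values of single members under an alternative, 62 kept direction and call and 6 lost a call through a fold-change limit (Gdf3 at both limits, and Smad7, Bmp4, Id2 and Id3 at 1). Only the centrings could change a direction, since the other alternatives kept the deposited fold changes. The lowest mean count of a member was 608, so the minimum of 50 removed none of them. This tally is therefore no measure of how stable the directions are.

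No paired analysis was possible because no column of counts is named for a replicate and the comparison table gives 1 value per gene. For the same reason other normalizations, count filters, a count model and leaving out each replicate were not run, and whether 1 library decides a value was not analysed here.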
